A study of Rattus norvegicus with 9 samples.

Results

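The genes described here are 40 genes of mitosis, the stage in which a cell separates its copied chromosomes and divides. They were listed by name, from the cyclins that start mitosis to the proteins of cytokinesis, with earlier results of these data known. Of the 40, 34 had a probe set with a single gene symbol in the annotation used here, among 14497 genes measured. Cenpe, Cenpf, Anln, Ncapg, Ncapd2 and Mki67 had none and were not analysed here.

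RNA was measured in 3 groups of 3 liver cell preparations from F344 rats, an inbred strain, with 1 Affymetrix Rat Gene ST array per preparation. OC.2+ fetal cells were titled LAP+/OC.2+ and came from livers at embryonic day 19. OC.2- fetal cells were titled LAP+/OC.2- and came from the same age. Adult hepatocytes came from perfused livers of rats aged 5-6 weeks. LAP is leucine aminopeptidase, a surface marker of hepatic cells, and OC.2 is an antigen of ductal cells. Both fetal groups were freed with collagenase and purified with antibodies to the 2 antigens, and no such purification is given for the adult cells. The labels describe the magnetic sort of both fetal groups with the same words for a double positive selection, and their description field writes LAP-OC2+ for the group titled LAP+/OC.2+, so the titles give the group names used here. Whether a preparation pooled several fetuses is not stated, and the p-values measure the spread between preparations the labels call biological replicates.

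The arrays of a group resembled each other, by Pearson correlation of log2 intensity over all 28826 array rows, named or not. It was 0.991 to 0.992 in OC.2+ cells, 0.986 to 0.991 in OC.2- cells and 0.988 to 0.991 in adult hepatocytes. The median intensity of an array was 87.7 to 88.9 in OC.2+ cells, 86.5 to 89.7 in OC.2- cells and 79.5 to 81.0 in adult hepatocytes. Markers of blood cell precursors were abundant in the fetal groups. The summed intensity of 14 red cell precursor markers was 41738 to 42170 in OC.2+ cells, 19522 to 22635 in OC.2- cells and 1293 to 1353 in adult hepatocytes, with the haemoglobin gene Hbb averaging a log2 intensity of 13.60 in OC.2+ cells and 12.77 in OC.2- cells. For 17 granulocyte markers the sum was 25483 to 29627 in OC.2+ cells, 1209 to 1329 in OC.2- cells and 1041 to 1098 in adult hepatocytes. Summed hepatocyte markers, 17 genes, went the other way, with 44384 to 48666 in OC.2+ cells, 108186 to 117250 in OC.2- cells and 118839 to 129004 in adult hepatocytes. The 6 measured ductal markers had a sum of 512 to 534 in OC.2+ cells, 449 to 459 in OC.2- cells and 346 to 367 in adult hepatocytes. Of these, Krt19, Krt7, Epcam, Spp1 and Cftr had mean log2 intensities of 5.62 to 6.23 in OC.2+ cells. Prom1, which stem and progenitor cells also express, had 7.54, 7.67 and 7.47 in OC.2+ cells, 6.79, 6.57 and 6.43 in OC.2- cells, and 5.37, 5.69 and 5.54 in adult hepatocytes. It was 1.95-fold higher in OC.2+ cells than in OC.2- cells (limma adjusted p = 9.46e-06), while Krt19 was lower and the other 4 were not called. In all genes 20.3% were higher and 18.2% lower in that comparison. The OC.2+ cells thus carried the markers of red cell and granulocyte precursors beside a reduced level of hepatocyte markers, and of the 6 ductal markers Prom1 alone was higher in them than in OC.2- cells.

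A cell enters mitosis when cyclin B accumulates and activates CDK1, helped by the Polo and Aurora kinases. Kinesins and microtubule proteins build the spindle, kinetochores attach the chromosomes to it, and the spindle assembly checkpoint holds back the anaphase-promoting complex until every chromosome is attached. Most of these genes are transcribed late in the cell cycle and kept low in resting cells. Hepatocytes of a mature, uninjured liver rarely divide, while the late fetal liver holds dividing hepatoblasts as well as dividing blood cell precursors. The adult hepatocytes here came from young rats, aged 5-6 weeks, and how many of them were dividing was not measured.

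All 34 measured mitosis genes were higher in OC.2+ fetal cells than in OC.2- fetal cells and higher in OC.2- fetal cells than in adult hepatocytes. In each gene the lowest OC.2+ array lay above the highest OC.2- array, and the lowest OC.2- array above the highest adult array. That order without overlap was found in 34 of 34 mitosis genes and in 10.7% of all genes. The median mitosis gene was 1.92-fold higher in OC.2+ cells than in OC.2- cells, 2.12-fold higher in OC.2- cells than in adult hepatocytes and 4.08-fold higher in OC.2+ cells than in adult hepatocytes. In bulk RNA a larger share of cells in mitosis and more of these transcripts per cell cannot be told apart. The array plot by role shows the 3 groups as separate bands.

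**Figure D1:**
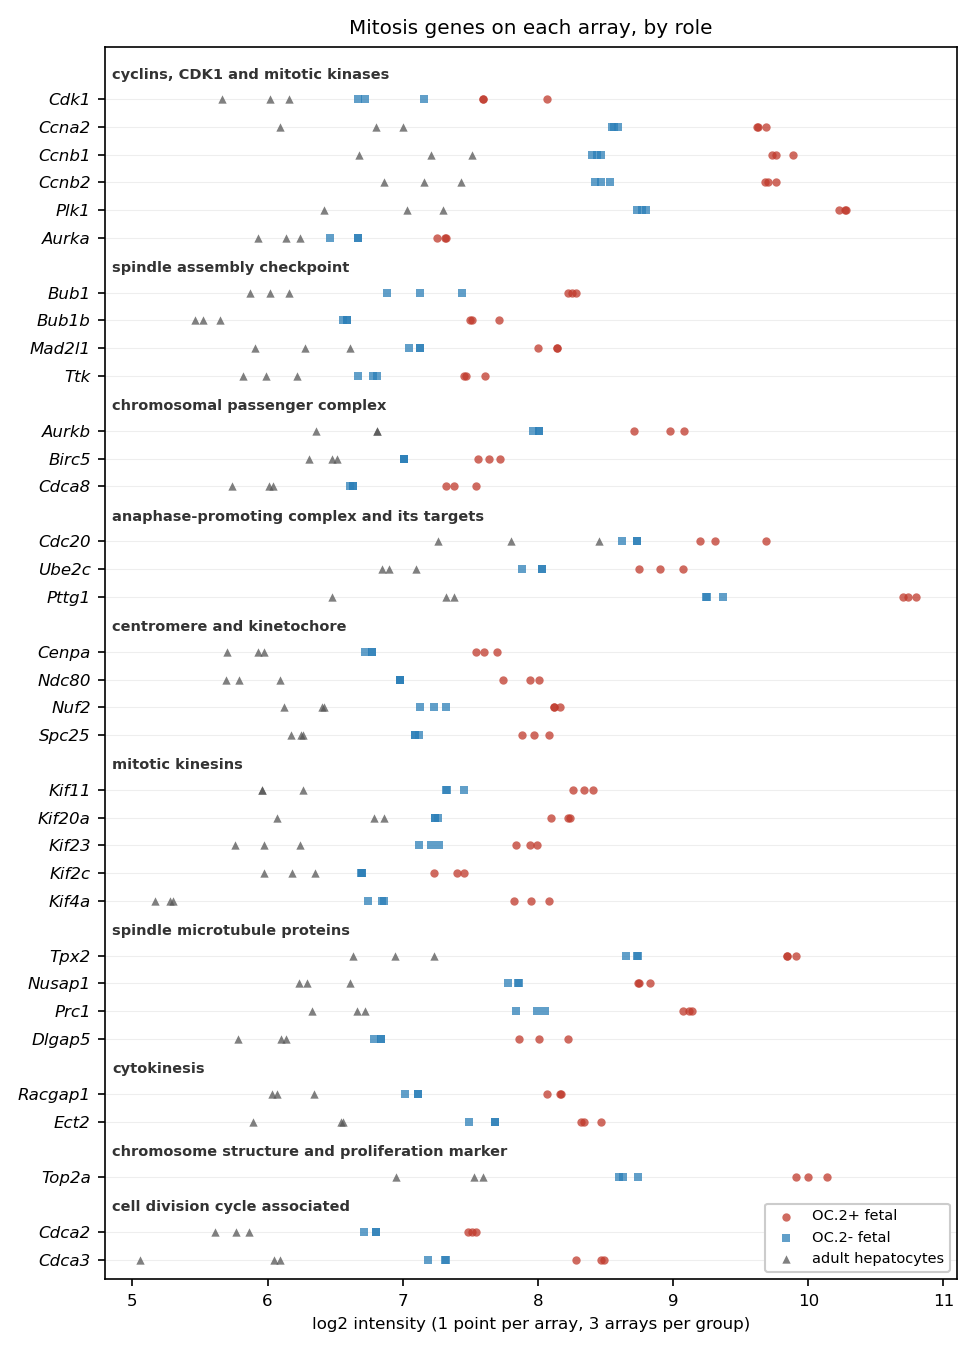
Log2 intensity (horizontal axis) of each of the 34 mitosis genes, grouped by role, with 1 point per array. Circles stand for OC.2+, squares for OC.2- and triangles for adult preparations, 3 arrays each. In every gene the circles lie to the right of the squares and the squares to the right of the triangles, and the triangles of Cdc20 spread furthest.

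Genes of late cell cycle transcription are known, in human and mouse, for a cell cycle genes homology region in their promoters, with the core TTTGAA, and for CCAAT boxes, which the factor NF-Y binds. Promoter sequences, taken from RefSeq on rat assembly GRCr8 as 250 bases before to 50 bases after each gene's start, were found for 28 of the 34 genes. They are shown for 4 genes to let these motifs be seen in place. Plk1, Pttg1, Top2a and Ccnb2 had the largest differences between OC.2+ and OC.2- cells among the 16 genes that held both motifs. The 4 were thus chosen for having TTTGAA and CCAAT. Ccnb1, with a larger difference than Ccnb2, had no TTTGAA in its window and was passed over. Each line runs 5′ to 3′ on the gene's strand, and capitals mark TTTGAA and CCAAT on either strand (TTCAAA and ATTGG on the other).
Plk1: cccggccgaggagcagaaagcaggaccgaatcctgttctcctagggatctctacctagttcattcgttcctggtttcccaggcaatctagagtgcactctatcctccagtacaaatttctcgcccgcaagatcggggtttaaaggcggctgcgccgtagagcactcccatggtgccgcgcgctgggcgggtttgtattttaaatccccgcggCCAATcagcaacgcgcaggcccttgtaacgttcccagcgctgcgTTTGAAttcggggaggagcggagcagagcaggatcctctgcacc
Pttg1: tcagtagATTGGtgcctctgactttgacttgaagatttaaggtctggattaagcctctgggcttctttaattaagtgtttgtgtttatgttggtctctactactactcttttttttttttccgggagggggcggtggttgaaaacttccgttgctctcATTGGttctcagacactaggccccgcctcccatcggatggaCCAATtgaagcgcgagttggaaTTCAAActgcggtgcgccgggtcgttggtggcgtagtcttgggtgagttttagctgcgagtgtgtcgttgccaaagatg
Top2a: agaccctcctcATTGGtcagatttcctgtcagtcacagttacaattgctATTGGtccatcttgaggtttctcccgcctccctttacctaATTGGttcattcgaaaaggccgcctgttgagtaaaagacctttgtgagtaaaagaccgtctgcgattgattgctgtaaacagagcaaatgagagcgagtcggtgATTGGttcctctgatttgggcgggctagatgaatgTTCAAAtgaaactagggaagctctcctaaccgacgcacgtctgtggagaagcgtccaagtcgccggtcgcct
Ccnb2: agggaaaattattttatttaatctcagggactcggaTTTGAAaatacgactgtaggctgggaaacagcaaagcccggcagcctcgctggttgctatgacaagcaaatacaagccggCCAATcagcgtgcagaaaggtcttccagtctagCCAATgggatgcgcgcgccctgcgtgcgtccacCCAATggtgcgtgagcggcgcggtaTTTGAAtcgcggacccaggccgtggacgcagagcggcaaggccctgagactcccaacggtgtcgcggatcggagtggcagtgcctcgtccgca

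These windows lie at chr1:186147408-186147707 on the plus strand for Plk1, and on the minus strand at chr10:28406277-28406576 for Pttg1, chr10:84473044-84473343 for Top2a and chr8:79981609-79981908 for Ccnb2. In Plk1 the TTTGAA core begins 7 bases into the gene, after a CCAAT that begins 38 bases before the start. In Pttg1 the core begins 29 bases before the start, and CCAAT boxes begin 243, 92 and 51 bases before it. Top2a has the core 22 bases before the start and 4 CCAAT boxes, the nearest at 57 bases. Ccnb2 has the core at 214 and at 43 bases before the start, with CCAAT boxes at 134, 101 and 68 bases. In all 4, chosen for holding both motifs, the nearest CCAAT box lies 5′ of the core closest to the start.

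TTTGAA, searched on both strands, was present in 20 of the 28 promoters of mitosis genes (71.4%), against 15.2% of the 11963 promoters of measured genes and 18.2% of all 27457 promoters in the table. In the last 100 bases of the window it was found in 15 of the 28 (53.6%), against 3.68% of measured genes. CCAAT was present in 21 of the 28 (75%), against 38.3% of measured genes, and 16 of the 28 held 2 or more (57.1%), against 12.5%. Both motifs together occurred in 16 of the 28 (57.1%), against 6.32% of measured genes. The E2F motifs TTGGCGC and TTCGCGC were in 2 (7.14%) and 1 (3.57%) of the mitosis promoters, against 3.51% and 2.38% of measured genes. A variant core, TTCGAA, was in 2 of the 28 (7.14%), against 1.85%. No motif contains another.

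DNA replication genes, a list of genes that act before mitosis, had TTTGAA in 3 of 31 promoters (9.68%), TTGGCGC in 10 (32.3%), TTCGCGC in 8 (25.8%), CCAAT in 19 (61.3%) and TTCGAA in 3 (9.68%). Other mitosis genes, outside the list of 40, had TTTGAA in 28 of 60 (46.7%) and CCAAT in 37 (61.7%). The 20 mitosis genes with TTTGAA differed between OC.2+ and OC.2- cells by a median log2 of 0.91, and the 8 without it (Ccnb1, Aurka, Bub1, Kif11, Kif20a, Kif2c, Dlgap5 and Cdca3) by 1.04. These are counts of letters in a fixed window and were not tested, and they say nothing on which factor bound there.

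The comparison of OC.2+ with OC.2- fetal cells sets the 2 sorted fetal populations against each other. With limma on log2 intensity, all 34 genes rose at a Benjamini-Hochberg adjusted p under 0.05, where 20.3% of all genes rose and 18.2% fell, 2944 and 2632 genes. After cyclic loess that split of all genes turned to 2714 higher and 2921 lower, and the 34 mitosis genes stayed higher. In 13 of the 34 the difference was at least 2-fold (23 after quantile normalization), against 3.69% of all genes, and all 34 showed no overlap between the groups, against 25.8%. The log2 differences ran from 0.63 for Birc5 to 1.49 for Plk1, with a median of 0.94, while the median of all genes was 0.04. The comparison of OC.2- fetal cells with adult hepatocytes sets fetal against adult liver cells. All 34 genes rose there too, where 23.7% of all genes rose and 20.9% fell, with 3431 genes higher and 3027 lower. With each array centred on its median, that split of all genes turned to 2324 higher and 3773 lower, and the 34 mitosis genes stayed higher. Of the mitosis genes, 20 differed at least 2-fold, against 4.06% of all genes, and all 34 showed no overlap, against 28.2%. The median log2 difference was 1.08, from 0.50 for Aurka to 2.23 for Pttg1, beside 0.07 for all genes. Between OC.2+ fetal cells and adult hepatocytes, where 32% of all genes rose and 23.4% fell, all 34 mitosis genes rose and were at least 2-fold higher, against 7.82% of all genes, and 37.2% of all genes were higher without overlap. The median was 2.03, beside 0.11 for all genes. These 3 comparisons share arrays and are not independent.

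**Figure D2:**
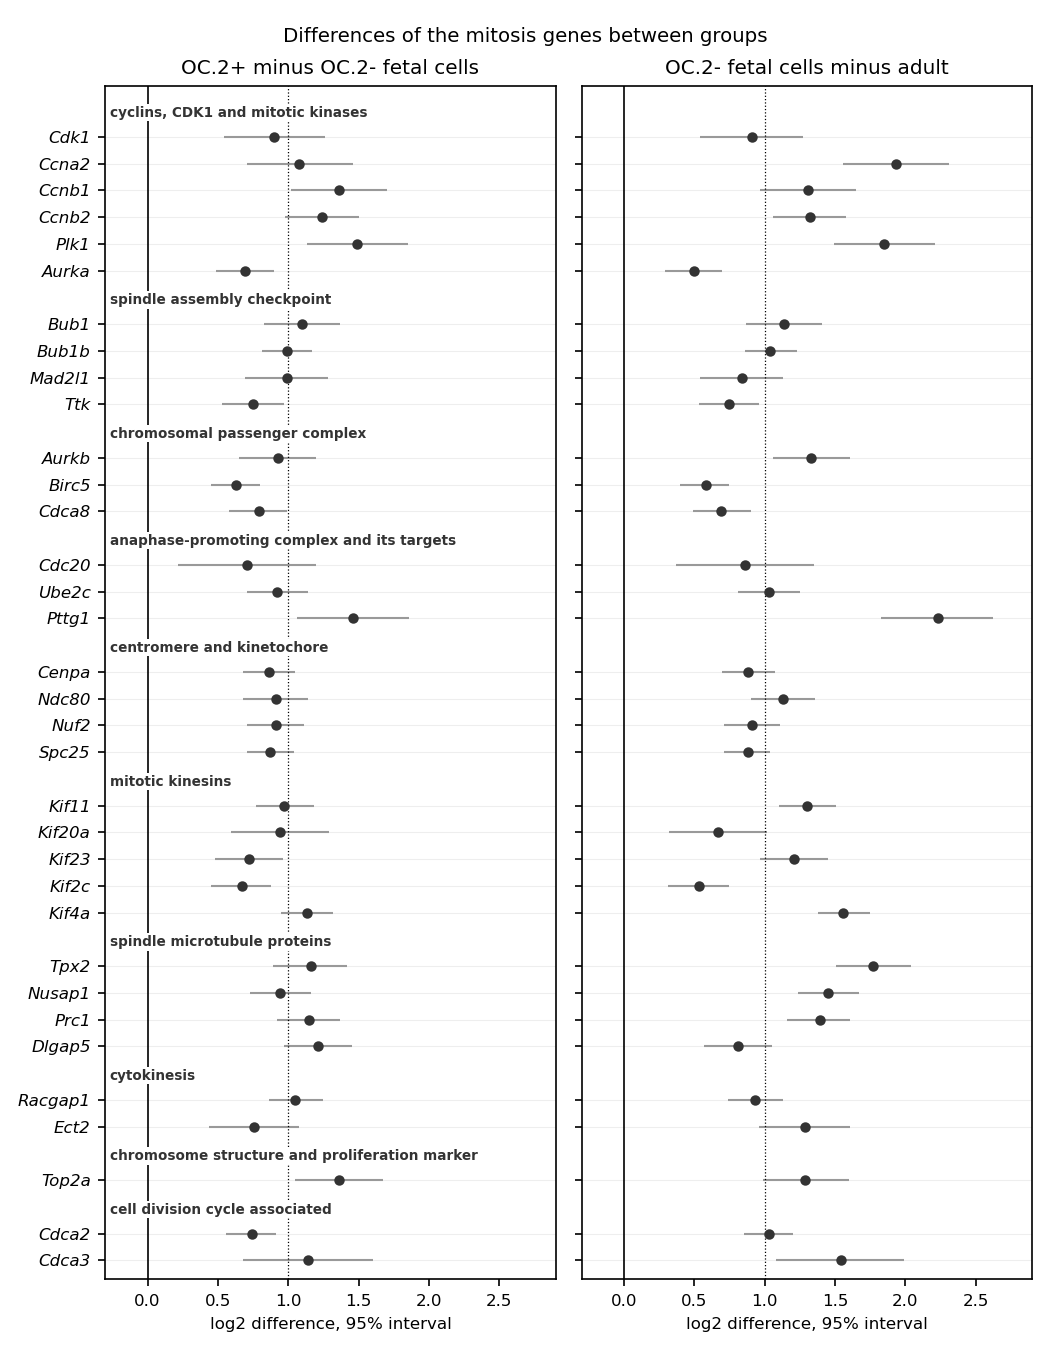
Log2 difference of each mitosis gene, for OC.2+ minus OC.2- (left) and OC.2- minus adult (right), with limma's 95% interval as a bar, from 3 arrays per group. The dotted line marks a 2-fold difference. All intervals lie above 0, and Cdc20 has the widest on the left, where its lower end is 0.22.

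Cyclins and the kinases that drive entry into mitosis held the gene with the largest difference between the fetal groups. Plk1, the Polo-like kinase that acts from mitotic entry to cytokinesis, had log2 intensities of 10.27, 10.23 and 10.28 in OC.2+ cells, 8.80, 8.73 and 8.77 in OC.2- cells, and 6.42, 7.30 and 7.03 in adult hepatocytes. The 3 groups stood far apart, and the adult arrays differed among themselves more than either fetal group did. Plk1 was 2.81-fold higher in OC.2+ cells than in OC.2- cells (95% interval 2.19 to 3.6, limma adjusted p = 7.9e-06) and 3.61-fold higher in OC.2- cells than in adult hepatocytes (2.81 to 4.62, limma adjusted p = 1.04e-06). Its level in OC.2+ cells was 10.1-fold that in adult hepatocytes.

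Ccnb1, the B-type cyclin that activates CDK1, had 9.73, 9.76 and 9.89 in OC.2+ cells, 8.40, 8.44 and 8.47 in OC.2- cells, and 6.68, 7.51 and 7.21 in adult hepatocytes, all as log2 intensity. The fetal values lay close together within each group and more than 1 log2 unit apart between the fetal groups. It was 2.56-fold higher in OC.2+ cells than in OC.2- cells (log2 1.36 ± 0.16, SE, limma adjusted p = 1.12e-05) and 2.47-fold higher in OC.2- cells than in adult hepatocytes (limma adjusted p = 1.55e-05). Ccnb2, a second B-type cyclin, was the only mitosis gene with 2 probe sets. The brighter set gave log2 differences of 1.24 and the dimmer set 1.58 between OC.2+ and OC.2- cells, and 1.32 and 1.18 between OC.2- cells and adult hepatocytes, so both sets ran the same way. Ccna2, the cyclin of S phase and early mitosis, was 2.12-fold higher in OC.2+ cells than in OC.2- cells and 3.82-fold higher in OC.2- cells than in adult hepatocytes.

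Cdk1, the kinase these cyclins activate, had log2 intensities of 7.59, 7.59 and 8.07 in OC.2+ cells, 6.72, 7.16 and 6.67 in OC.2- cells, and 5.66, 6.16 and 6.02 in adult hepatocytes. In each group 1 array lay apart from the other 2, without closing the gap between groups. The steps were equal in size, 1.87-fold between OC.2+ and OC.2- cells (1.45 to 2.4, limma adjusted p = 0.000692) and 1.87-fold between OC.2- cells and adult hepatocytes (1.46 to 2.41, limma adjusted p = 0.000642). Aurka, the Aurora kinase of the spindle poles, showed the smallest differences of this role. Its log2 intensities were 7.31, 7.32 and 7.25 in OC.2+ cells, 6.67, 6.67 and 6.46 in OC.2- cells, and 6.14, 6.24 and 5.93 in adult hepatocytes. That made 1.62-fold between the fetal groups (1.4 to 1.87, limma adjusted p = 5.09e-05) and 1.41-fold between OC.2- cells and adult hepatocytes (1.22 to 1.63, limma adjusted p = 0.00082). Of the 6 genes of this role, 4 were at least 2-fold higher in each of those comparisons, beside 3.69% and 4.06% of all genes.

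The spindle assembly checkpoint was measured through 4 genes. Bub1, a checkpoint kinase at the kinetochore, had log2 intensities of 8.25, 8.22 and 8.28 in OC.2+ cells, 7.13, 7.44 and 6.88 in OC.2- cells, and 5.87, 6.02 and 6.16 in adult hepatocytes. Here the OC.2- arrays were the most spread of the groups. Bub1 was 2.14-fold higher in OC.2+ cells than in OC.2- cells (limma adjusted p = 9.27e-06) and 2.2-fold higher in OC.2- cells than in adult hepatocytes (limma adjusted p = 6.86e-06). Ttk, the kinase MPS1 that starts checkpoint signalling, had 7.61, 7.47 and 7.45 in OC.2+ cells, 6.81, 6.78 and 6.67 in OC.2- cells, and 5.82, 6.22 and 5.99 in adult hepatocytes. Its steps were smaller, 1.69-fold (limma adjusted p = 4.4e-05) and 1.68-fold (limma adjusted p = 4.81e-05). Bub1b and Mad2l1, which encode the checkpoint proteins BUBR1 and MAD2, were 1.99-fold and 1.98-fold higher in OC.2+ cells than in OC.2- cells. Against adult hepatocytes, OC.2- cells had 2.06-fold more of Bub1b and 1.79-fold more of Mad2l1.

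The chromosomal passenger complex corrects faulty attachments and later acts at the cleavage furrow. Aurkb, its kinase, had log2 intensities of 8.98, 8.71 and 9.08 in OC.2+ cells, 8.01, 8.01 and 7.96 in OC.2- cells, and 6.36, 6.81 and 6.81 in adult hepatocytes. It rose 1.9-fold in OC.2+ over OC.2- cells (limma adjusted p = 5.27e-05) and 2.52-fold in OC.2- cells over adult hepatocytes (limma adjusted p = 1.85e-06). Birc5, which encodes survivin, the subunit that brings the complex to centromeres, showed the smallest difference between the fetal groups of all 34 genes. Its values were 7.56, 7.64 and 7.72 in OC.2+ cells, 7.01 on all 3 arrays of OC.2- cells, and 6.31, 6.51 and 6.48 in adult hepatocytes. The differences were 1.55-fold (limma adjusted p = 2.97e-05) and 1.49-fold (limma adjusted p = 6.03e-05). Cdca8, the subunit borealin, was 1.73-fold higher in OC.2+ cells than in OC.2- cells and 1.62-fold higher in OC.2- cells than in adult hepatocytes. Incenp, the scaffold subunit and not on the list of 40, was 1.79-fold and 1.7-fold higher in these comparisons.

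Among the genes of the anaphase-promoting complex and its targets stood both the widest and one of the least certain differences. Pttg1, which encodes securin, the inhibitor of separase that the complex destroys at anaphase, had log2 intensities of 10.70, 10.80 and 10.74 in OC.2+ cells, 9.25, 9.24 and 9.37 in OC.2- cells, and 6.48, 7.32 and 7.38 in adult hepatocytes. Adult replicate 1 lay well below the other adult arrays, and the fetal groups were tight. The gene was 2.75-fold higher in OC.2+ cells than in OC.2- cells (2.09 to 3.63, limma adjusted p = 2.4e-05) and 4.68-fold higher in OC.2- cells than in adult hepatocytes (3.55 to 6.16, limma adjusted p = 4.75e-07). At 12.9-fold, it also had the largest difference of the 34 genes between OC.2+ cells and adult hepatocytes (9.78 to 17, limma adjusted p = 1.29e-09). Ube2c, the ubiquitin-conjugating enzyme of the complex, was 1.9-fold higher in OC.2+ cells than in OC.2- cells and 2.04-fold higher in OC.2- cells than in adult hepatocytes.

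Cdc20, the coactivator that the checkpoint blocks, had log2 intensities of 9.69, 9.31 and 9.20 in OC.2+ cells, 8.73, 8.73 and 8.62 in OC.2- cells, and 7.26, 8.45 and 7.80 in adult hepatocytes. No other mitosis gene spread as widely among the adult arrays, 2.28-fold from lowest to highest, yet the 3 groups did not overlap. Cdc20 was 1.63-fold higher in OC.2+ cells than in OC.2- cells (1.16 to 2.29, limma adjusted p = 0.0244) and 1.81-fold higher in OC.2- cells than in adult hepatocytes (limma adjusted p = 0.00739). The first of these calls was lost in 6 of 20 other settings at that threshold, with limma adjusted p from 0.00125 to 0.117 over the 20, the highest without OC.2+ replicate 1, where the log2 difference was 0.56 beside 0.71. The core subunits of the complex are not on the list of 40. Of 11 measured, 5 were higher in OC.2+ cells than in OC.2- cells, beside 20.3% of all genes, and 6 were not called. Anapc1 reached 1.68-fold as the largest of the 11 (limma adjusted p = 3.85e-06, named after its value was seen). Between OC.2- cells and adult hepatocytes 2 were higher, 1 was lower and 8 were not called, beside 23.7% of all genes higher and 20.9% lower. The 11 subunits had median log2 differences of 0.24 and 0.13.

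Centromere and kinetochore genes were the most alike in size. Ndc80, the microtubule-binding subunit of the outer kinetochore, had log2 intensities of 7.74, 7.94 and 8.01 in OC.2+ cells, 6.98 on all 3 arrays of OC.2- cells, and 5.79, 6.09 and 5.69 in adult hepatocytes. It was 1.88-fold higher in OC.2+ cells than in OC.2- cells (limma adjusted p = 1.2e-05) and 2.18-fold higher in OC.2- cells than in adult hepatocytes (limma adjusted p = 1.67e-06). Cenpa, the histone H3 variant that marks centromeres, had 7.60, 7.54 and 7.70 in OC.2+ cells, 6.77, 6.77 and 6.72 in OC.2- cells, and 5.97, 5.93 and 5.70 in adult hepatocytes. Its differences were 1.82-fold and 1.85-fold. Nuf2 and Spc25, which join Ndc80 in the same complex, were 1.88-fold and 1.83-fold higher in OC.2+ cells than in OC.2- cells, and likewise 1.88-fold and 1.83-fold higher in OC.2- cells than in adult hepatocytes. The 4 log2 differences between the fetal groups thus lay between 0.86 and 0.91.

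Mitotic kinesins were less uniform. Kif4a, a chromosome-bound kinesin that limits microtubule growth at the midzone, had log2 intensities of 7.95, 7.82 and 8.08 in OC.2+ cells, 6.85, 6.74 and 6.86 in OC.2- cells, and 5.17, 5.30 and 5.28 in adult hepatocytes. It was among the least spread of the mitosis genes in adult hepatocytes, with an SD of 0.07. The gene was 2.19-fold higher in OC.2+ cells than in OC.2- cells (limma adjusted p = 2.18e-07) and 2.96-fold higher in OC.2- cells than in adult hepatocytes (limma adjusted p = 1e-08). Kif2c, the microtubule-depolymerising kinesin MCAK, lay at the other end of this role, with 7.23, 7.40 and 7.45 in OC.2+ cells, 6.69, 6.70 and 6.70 in OC.2- cells, and 5.97, 6.18 and 6.35 in adult hepatocytes. That was 1.59-fold (limma adjusted p = 0.000118) and 1.44-fold (limma adjusted p = 0.000747). Kif11, the spindle motor Eg5, was 1.96-fold and 2.47-fold higher in these comparisons, Kif20a, a kinesin of cytokinesis, 1.92-fold and 1.59-fold, and Kif23, the kinesin of the central spindle, 1.65-fold and 2.32-fold.

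Spindle microtubule proteins included 3 of 4 genes at least 2-fold higher in OC.2+ cells than in OC.2- cells, beside 3.69% of all genes. Dlgap5, which encodes HURP, a stabiliser of kinetochore fibres, had log2 intensities of 8.01, 7.86 and 8.22 in OC.2+ cells, 6.84, 6.84 and 6.79 in OC.2- cells, and 5.78, 6.10 and 6.14 in adult hepatocytes. It was 2.31-fold higher in OC.2+ cells than in OC.2- cells (limma adjusted p = 1.28e-06) and 1.76-fold higher in OC.2- cells than in adult hepatocytes (limma adjusted p = 5e-05). Nusap1, a microtubule-bundling protein, had 8.75, 8.83 and 8.74 in OC.2+ cells, 7.85, 7.86 and 7.78 in OC.2- cells, and 6.23, 6.61 and 6.29 in adult hepatocytes. For it the order of sizes was the other way, 1.92-fold and 2.74-fold. Tpx2, the activator of Aurora A on spindle microtubules, was 2.23-fold and 3.41-fold higher in these comparisons, and Prc1, the crosslinker of the central spindle, 2.22-fold and 2.62-fold.

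Cytokinesis was measured through Racgap1 and Ect2. Racgap1, a subunit of centralspindlin, had log2 intensities of 8.17, 8.07 and 8.16 in OC.2+ cells, 7.11, 7.11 and 7.02 in OC.2- cells, and 6.03, 6.34 and 6.07 in adult hepatocytes. Ect2, the exchange factor that activates RhoA at the furrow, had 8.32, 8.34 and 8.47 in OC.2+ cells, 7.68, 7.68 and 7.49 in OC.2- cells, and 5.89, 6.54 and 6.56 in adult hepatocytes. The groups were separate in both genes. Racgap1 was 2.08-fold higher in OC.2+ cells than in OC.2- cells (limma adjusted p = 6.41e-07) and Ect2 1.7-fold higher (limma adjusted p = 0.001). In OC.2- cells over adult hepatocytes the values were 1.91-fold for Racgap1 and 2.44-fold for Ect2.

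Top2a, the topoisomerase that disentangles sister chromatids, had log2 intensities of 9.91, 10.00 and 10.14 in OC.2+ cells, 8.60, 8.74 and 8.63 in OC.2- cells, and 6.95, 7.59 and 7.53 in adult hepatocytes. The 2 steps were close in size, 2.57-fold between OC.2+ and OC.2- cells (limma adjusted p = 4.46e-06) and 2.45-fold between OC.2- cells and adult hepatocytes (limma adjusted p = 7.13e-06). Cdca3, known as a trigger of mitotic entry, had 8.47, 8.49 and 8.28 in OC.2+ cells, 7.31, 7.19 and 7.32 in OC.2- cells, and 5.06, 6.05 and 6.09 in adult hepatocytes. Its adult replicate 1 lay about 1 log2 unit under the other adult arrays. Cdca3 was 2.2-fold and 2.9-fold higher in these comparisons, and Cdca2, a protein phosphatase 1 partner on mitotic chromatin, 1.67-fold and 2.04-fold.

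The size of the step from adult hepatocytes to OC.2- cells was set against the step from OC.2- to OC.2+ cells in the same model, a contrast added after the data had been seen. Above the median of all genes lay 6 of the 34 genes on adult replicate 1 and 12 on each other adult array. On OC.2- arrays 27 to 31 lay above it, and on each OC.2+ array all 34. Differences of dim genes can be compressed, so the step from adult hepatocytes may be understated. For 30 of the 34 genes the steps did not differ at a limma adjusted p under 0.05, and in all genes 17% had a larger and 14.2% a smaller second step. The 4 genes with a smaller second step were Ccna2 (log2 -0.85 ± 0.30, SE, limma adjusted p = 0.0471), Tpx2 (-0.62 ± 0.21, limma adjusted p = 0.0427), Nusap1 (-0.51 ± 0.17, limma adjusted p = 0.0375) and Kif4a (-0.43 ± 0.15, limma adjusted p = 0.0436). These calls were not stable. With arrays centred on their medians limma called 0 of the 34 smaller (3 at an unadjusted p under 0.05) and called Dlgap5 larger, and with the spread taken from OC.2+ and adult arrays it called 0 smaller (5 unadjusted). It also called 0 smaller without OC.2+ replicate 1 (4 unadjusted), without OC.2- replicate 1 (4 unadjusted) and without OC.2- replicate 3 (6 unadjusted), while without adult replicate 1 it called Dlgap5 and Kif20a larger and Ccna2, Pttg1 and Tpx2 smaller. More genes were called smaller after cyclic loess, 6 of the 34, and without adult replicate 2, 5 of the 34.

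Spread within groups differed. The median SD of the 34 genes was 0.08 log2 units in OC.2+ cells, 0.05 in OC.2- cells and 0.21 in adult hepatocytes, beside 0.09, 0.11 and 0.10 for all genes in the same groups. Adult replicate 1 was the lowest adult array in 29 of the 34 genes, where that array was the lowest in 32.9% of all genes, and adult replicate 2 was the highest in 20, beside 34.8%. The summed intensity of the 34 genes was 2483, 3532 and 3186 on the adult arrays. Red cell precursor and granulocyte markers were more level there, with sums of 1293, 1316 and 1353 and of 1041, 1098 and 1043. Both lists were dim on these arrays, so level sums say little on the cells present. Their median log2 intensities were 6.18 to 6.20 and 5.86 to 6.04, beside 6.59 to 6.62 for all genes. The DNA replication genes summed to 3851, 4217 and 4061. Without adult replicate 1 the median log2 difference between OC.2+ cells and adult hepatocytes was 1.92, and without adult replicate 2 it was 2.08.

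The small spread in OC.2- cells came with equal values. On 2 or 3 of the OC.2- arrays, 14 of the 34 genes (41.2%) had the same log2 intensity to within 1e-06, and Birc5 and Ndc80 had it on all 3, while no mitosis gene had equal values within OC.2+ cells or adult hepatocytes. In all genes such ties occurred in 10.6% within OC.2+ cells, 13.4% within OC.2- cells and 7.07% within adult hepatocytes. Among the genes ordered like the mitosis genes, with OC.2- cells between the other groups, they occurred in 0.129% within OC.2+ cells, 25.2% within OC.2- cells and 0.129% within adult hepatocytes. RMA as usually run ends in a median polish, which can return identical values for several arrays. The SDs of these genes in OC.2- cells can therefore understate the spread. With the spread estimated from OC.2+ and adult arrays alone, 33 of the 34 genes stayed called between OC.2+ and OC.2- cells, and Cdc20 had a limma adjusted p of 0.0641.

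Genes of mitosis outside the list of 40 moved less evenly. The 70 measured include the 11 core subunits of the anaphase-promoting complex already given above. Of the 70, 57 were higher in OC.2+ cells than in OC.2- cells, 1 was lower and 12 were not called, 6 of them core subunits. The median log2 difference of the 70 was 0.79, and 20.3% of all genes were higher and 18.2% lower. Between OC.2- cells and adult hepatocytes 55 were higher, 1 was lower and 14 were not called, 8 of them core subunits. The median of the 70 was then 0.66. In that comparison 23.7% of all genes were higher and 20.9% lower. Pimreg, a mitotic regulator, was the gene that fell between the fetal groups, by 0.41 on the log2 scale (SE 0.10, limma adjusted p = 0.00376). It was dim, with 5.79, 5.85 and 5.93 in OC.2+ cells, where the 25th percentile of all genes was 5.99 to 6.02. In OC.2- cells it had 6.34, 6.20 and 6.26. Anapc2, a core subunit of the anaphase-promoting complex, was the gene that was lower in OC.2- cells than in adult hepatocytes, by a small margin (log2 -0.24 ± 0.09, SE, limma adjusted p = 0.0452).

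The transcription factors known to switch on late cell cycle genes were measured with them. Mybl2, which encodes B-MYB, a partner of the MuvB complex, had log2 intensities of 9.48, 9.53 and 9.53 in OC.2+ cells, 7.99, 7.92 and 7.94 in OC.2- cells, and 6.21, 6.33 and 6.45 in adult hepatocytes. It was 2.95-fold higher in OC.2+ cells than in OC.2- cells (limma adjusted p = 5.12e-09) and 3.07-fold higher in OC.2- cells than in adult hepatocytes (limma adjusted p = 3.19e-09). Foxm1, the forkhead factor of the same genes, had 8.95, 8.95 and 8.75 in OC.2+ cells, 8.36 on all 3 arrays of OC.2- cells, and 7.18, 7.71 and 7.52 in adult hepatocytes. Its differences were smaller, 1.44-fold (limma adjusted p = 0.00297) and 1.86-fold (limma adjusted p = 4e-05).

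Of 36 DNA replication genes, 35 were higher in OC.2+ cells than in OC.2- cells, with a median log2 difference of 0.86. Between OC.2- cells and adult hepatocytes 31 were higher and 2 lower, with a median of 0.77. In all genes 20.3% were higher and 18.2% lower in the first comparison, and 23.7% and 20.9% in the second. Of 20 G1 cyclins and cell cycle inhibitors, a list that mixes drivers and inhibitors, 13 were higher in OC.2+ cells than in OC.2- cells and 3 were lower. Between OC.2- cells and adult hepatocytes 11 were higher and 5 were lower. The 3 lower between the fetal groups were the cyclin Ccnd1 and the inhibitors Cdkn1a and Cdkn1c. Among the higher were the cyclins Ccnd2, Ccnd3, Ccne1 and Ccne2, the kinases Cdk2, Cdk4 and Cdk6 and the inhibitors Cdkn1b and Cdkn2c. The plot of gene lists shows that mitosis and DNA replication genes moved largely one way, and the mixed list of G1 genes and inhibitors both ways.

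**Figure D3:**
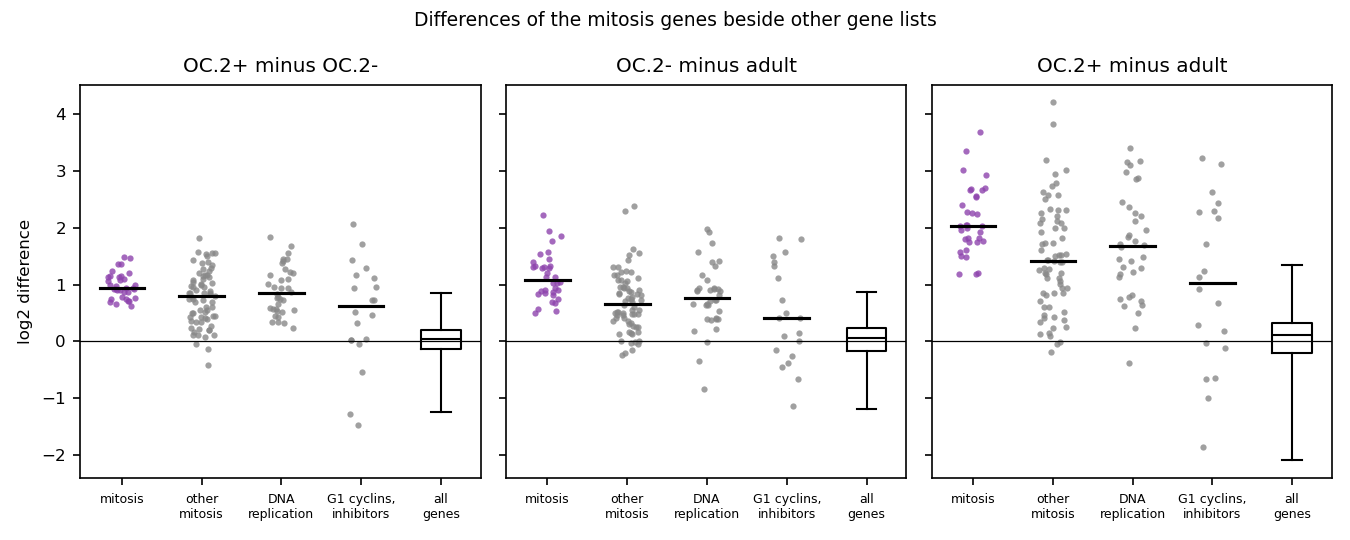
Log2 difference of each gene (points) in the 34 mitosis genes, 70 other mitosis genes, 36 DNA replication genes and 20 G1 cyclins and inhibitors, for the 3 comparisons named above the panels, with a bar at each median. The box for all 14497 genes gives the median and quartiles, with whiskers at the 5th and 95th percentiles. All points of the mitosis genes lie above 0, with medians of 0.94, 1.08 and 2.03.

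The summed intensity of the 34 mitosis genes was 15226 to 15663 in OC.2+ cells, 7053 to 7310 in OC.2- cells and 2483 to 3532 in adult hepatocytes. The mean sum in OC.2+ cells was 2.14 times that in OC.2- cells, and in OC.2- cells 2.35 times that in adult hepatocytes. Summed red cell precursor markers moved in the same directions, by 2 times and 15.9 times, but bright genes weigh most in a sum. The median red cell marker was 3.4-fold higher in OC.2+ cells than in OC.2- cells and 4.96-fold higher in OC.2- cells than in adult hepatocytes. For the median mitosis gene these values were 1.92-fold and 2.12-fold. The counts that follow stand beside 20.3% of all genes higher and 18.2% lower in OC.2+ cells than in OC.2- cells. Between OC.2- cells and adult hepatocytes the shares of all genes were 23.7% higher and 20.9% lower. Of the 14 red cell markers, 13 were higher and 1, the embryonic globin Hbe1, was lower in OC.2+ cells than in OC.2- cells. All 14 were higher in OC.2- cells than in adult hepatocytes. The sums of granulocyte markers had ratios of 22.1 and 1.19, with 16 of 17 higher in OC.2+ cells than in OC.2- cells and 8 of 17 higher in OC.2- cells than in adult hepatocytes. Megakaryocyte markers had ratios of 2.32 and 1.52, with 6 of 6 higher in OC.2+ cells than in OC.2- cells and 5 of 6 higher in OC.2- cells than in adult hepatocytes. Hepatocyte markers had ratios of 0.406 and 0.933, with 16 of 17 lower in OC.2+ cells than in OC.2- cells. Endothelial markers were lower in OC.2+ cells than in OC.2- cells in 9 of 9 genes and higher in OC.2- cells than in adult hepatocytes in 9 of 9. Stellate markers, with ratios of 0.739 and 3.89, were lower in OC.2+ cells in 11 of 12 genes, and OC.2- cells exceeded adult hepatocytes in 11 of 12. Macrophage markers had ratios of 0.744 and 2.05, with 4 of 12 lower in OC.2+ cells and 8 higher, 2 lower in OC.2- cells over adult hepatocytes. The part of these cell types in the differences of the mitosis genes was not tested.

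**Figure D4:**
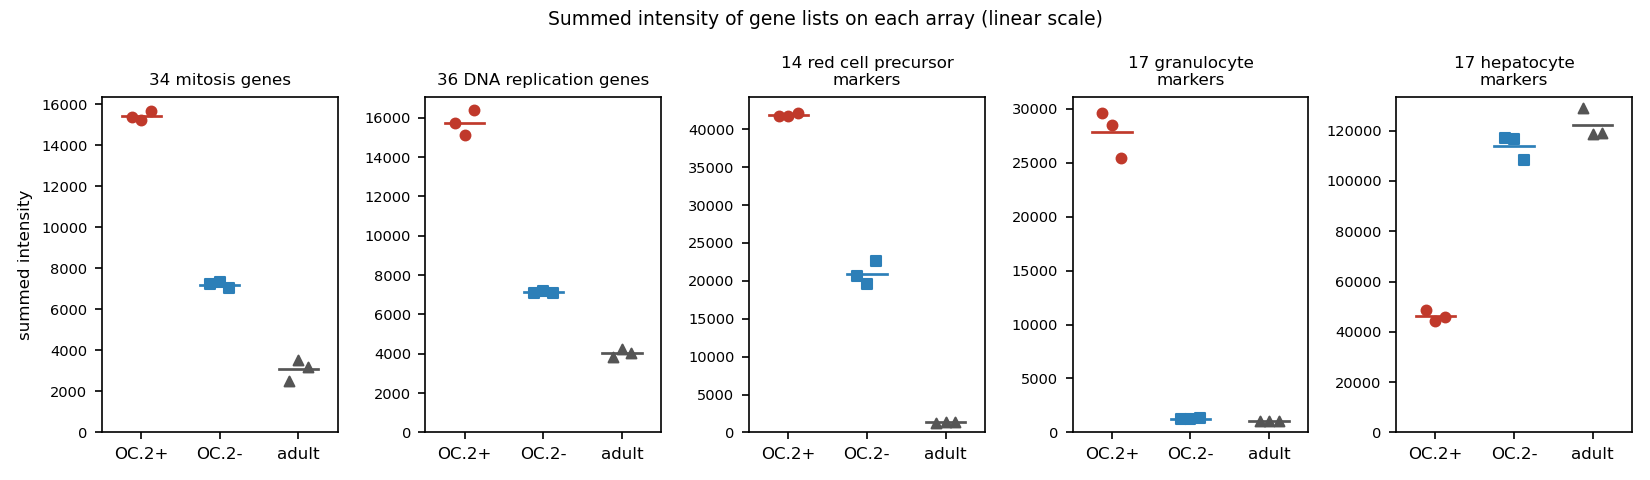
Summed linear intensity (vertical axis from 0) of 5 gene lists on each array, with OC.2+, OC.2- and adult arrays from left to right and a bar at each group's mean. The mitosis genes form 3 levels, at 15226 to 15663 in OC.2+ cells, 7053 to 7310 in OC.2- cells and 2483 to 3532 in adult hepatocytes, and the granulocyte markers are high in OC.2+ cells only among these 3 groups.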

How the data were processed

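The authors deposited linear intensities of 9 arrays. Partek 6.6 and RMA are named per the submitters' processing notes without their roles; the genome build was not given in the sources used here. RMA, in its usual form, aligns array distributions, so a shift common to most genes can be lost, and it compresses differences of dim genes. Per the labels' protocols, 150 ng of total RNA entered an Affymetrix whole-transcript amplification. Of 28826 rows, 15209 had 1 gene symbol in the platform annotation, 306 had several and 13311 had none; only the first were named, and 15178 of these symbols were found in a current rat gene table (GRCr8), which changed 0. The row with the highest mean stood for a gene with several (494 genes), for 14497 genes in all, dim ones included.

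Log2 of the deposited intensity was fitted in limma 3.58.1 (R 4.3.3, lmFit and eBayes) over all 9 arrays, with 6 residual degrees of freedom, 2-sided tests and Benjamini-Hochberg adjustment over all genes, called at 0.05. The script was tested on simulated data. Precision is limited by 3 arrays per group. Genes named in each role were those with the largest and the smallest difference between OC.2+ and OC.2- cells, with Cdk1 and Ccnb1 added; other mitosis genes were named where they went against the rest, with Foxm1, Mybl2 and Incenp added. The mitosis genes and all lists were chosen with earlier results of these data known. Alternatives covered scaling, filters on dim genes, variance models, array weights, a replicate block and leaving out each array. Same-numbered replicates deviated from their group means with correlations of -0.23 to 0.11, so the numbers were not taken as pairs.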

Additional observations from a re-analysis of the deposited data

How the results depend on the processing

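Across 21 alternatives, 12 of them changes of setting and 9 leaving out 1 array each, no mitosis gene changed direction in any of the 3 comparisons, and the 1 call lost was that of Cdc20 between OC.2+ and OC.2- cells. Since the groups did not overlap in any of the 34 genes, leaving out or weighting arrays could not reverse a direction. Changes of threshold, variance or filter leave the differences as they are. Direction was thus put to the test mainly by the rescalings, and the other settings bear on calls only. Without 1 array, 33 to 34 mitosis genes stayed called there. At least 2-fold higher in OC.2+ cells than in OC.2- cells were 23 genes after quantile normalization, beside 13, and the median log2 difference was then 1.06, beside 0.94. Median centring gave a median of 0.98 between OC.2- cells and adult hepatocytes, beside 1.08, and cyclic loess 1.93 between OC.2+ cells and adult hepatocytes, beside 2.03. Leaving out 1 array at a time gave 1.92 to 2.08 for that median. The median of all genes between OC.2+ cells and adult hepatocytes was 0.11, and -0.00 after cyclic loess, so the mitosis genes stood as far above it. Of all genes called between OC.2+ cells and adult hepatocytes, 57.8% were higher, against 48.7% after median centring and 48.4% after cyclic loess. A filter at the median of all genes left 29 of the 34, which passed largely through the fetal arrays, so the calls among them say nothing on stability.

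A replicate block, where same-numbered arrays were not shown to be pairs, left 34 mitosis genes called in each comparison and 5416, 6199 and 7777 of all genes, beside 5576, 6458 and 8034. Of 18 best matches between arrays of different groups, 5 fell on the same number. The spread taken from OC.2+ and adult arrays was added after seeing the data. Values near the background of dim probes have no detection call, so small differences of dim genes may be understated.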

Other observations

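Centromere proteins of the CENP family, chosen for mention after their values were seen, were measured through 8 genes outside the list of 40 (Cenpi, Cenpk, Cenpl, Cenpm, Cenpn, Cenpt, Cenpu and Cenpw). Most belong to the network of proteins that stays on the centromere through the cell cycle. All 8 were higher in OC.2+ cells than in OC.2- cells, beside 20.3% of all genes, and 5 were at least 2-fold higher, beside 3.69%. Their median log2 difference was 1.14 (limma, adjusted over all genes). Between OC.2- cells and adult hepatocytes 7 were higher, beside 23.7% of all genes, with a median of 0.73. The gene not called was Cenpm, with log2 intensities of 7.71, 7.82 and 7.96 in OC.2- cells and 7.79, 7.97 and 7.69 in adult hepatocytes, a difference of 0.01 within the spread of either group.

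The Cdc25 phosphatases, which remove the inhibitory phosphates from CDK1 and CDK2, were likewise named after their values were seen. Cdc25b, the form that acts at mitotic entry, averaged a log2 intensity of 10.93 in OC.2+ cells, 9.11 in OC.2- cells and 6.73 in adult hepatocytes. Its differences, 1.82 between OC.2+ and OC.2- cells and 2.38 between OC.2- cells and adult hepatocytes, were the largest of the 70 other mitosis genes in both comparisons. Cdc25c differed by 0.43 and 0.50. In all 3 phosphatases OC.2+ cells lay above OC.2- cells and these above adult hepatocytes without overlap, beside 10.7% of all genes.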
